A study of Mus musculus with 9 samples.

Results

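The Polycomb group genes described here are Bmi1, Ezh1, Ezh2, Eed, Suz12, Cbx2, Cbx7, Cbx8, Ring1 and Asxl1, 10 of the 18193 mouse genes that had a probe set of their own on the array. Their members were all probe sets whose platform annotation named exactly 1 of these symbols, which gave 26 of 45101 probe sets. The rule used gene symbols and no measured value, although the genes were put together with earlier results of these data known. The values are log2 signals after RMA, in which 1 unit is a doubling of signal.

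RNA came from bone marrow cells sorted as negative for lineage markers and positive for Sca1 and cKit (LSK cells, a fraction that holds hematopoietic stem cells and early progenitors) of lethally irradiated C57Bl/6 mice (10 Gy) that had been transplanted 8 weeks earlier. The GFP pos group (3 arrays) held the transgene-positive LSK cells of mice that had received C57Bl/6 donor marrow cells transduced with a retroviral dnMPL vector (LSK cells by the sample labels, lineage-negative cells by the design text). The GFP neg group (3 arrays) held the transgene-negative LSK cells of dnMPL mice. The control group (3 arrays) held LSK cells of mice transplanted with wild type cells, and the labels do not say whether these carried a vector.

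The labels do not spell out the name dnMPL. All 3 groups share irradiation, transplantation and recipient strain. Each array pooled marrow of 2 to 5 mice, and the labels do not say whether arrays with the same number share mice, so the tests measure the spread between pools. An exact permutation test of 3 arrays against 3 cannot give a p below 0.1.

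Polycomb proteins keep genes silent by modifying histones, and work in 2 kinds of complex. Polycomb repressive complex 2 carries Ezh2 or Ezh1 as the enzyme that methylates histone H3, with Eed and Suz12 as subunits it needs to be active. Polycomb repressive complex 1 carries Ring1 or its paralog as the ubiquitin ligase, Bmi1 as the partner that stimulates it, and a Cbx protein that binds the methyl mark. Asxl1 is the partner of the deubiquitinase Bap1, which removes the mark set by complex 1. In mouse marrow Bmi1 is known for its need in stem cell self-renewal, while Cbx7 and Cbx8 are known for opposite effects on it, Cbx7 favoring self-renewal and Cbx8 differentiation.

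None of the Polycomb group genes passed the test in any comparison. Of the 26 probe sets 21 had a mean above the filter on low values (4.03) and were tested, and at least 1 probe set of each of the 10 genes was among them. Among the tested probe sets, the largest differences between GFP pos and control cells by point estimate were lower values of Ring1 and Cbx8. Both are parts of complex 1. Ring1 also had the largest difference of the tested member probe sets between GFP pos and GFP neg cells. The genes of complex 2 (Ezh2, Ezh1, Eed and Suz12) differed less by their brightest probe sets, at most by -0.37 log2 units, for Suz12 between GFP pos and GFP neg cells. By the same measure Bmi1, Cbx7 and Cbx2 of complex 1 also differed less between GFP pos and control cells, by 0.23, -0.18 and -0.055. After Benjamini-Hochberg adjustment over 27022 probe sets, limma called 0 member probe sets in GFP pos against control cells, 0 in GFP neg against control cells and 0 in GFP pos against GFP neg cells.

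The background was as empty. In each of these comparisons 0% of all tested probe sets passed (0 of 27022), and the smallest adjusted p of any probe set was 0.374 for GFP pos against control, 0.372 for GFP neg against control and 0.9999 for GFP pos against GFP neg. At an unadjusted p below 0.05, limma counted 1 of the 21 member probe sets (4.76%) in GFP pos against control, beside 5.88% of all probe sets. It counted 0 of 21 in GFP neg against control, beside 5.31%, and 1 of 21 in GFP pos against GFP neg, beside 2.71%. With both dnMPL fractions set together against control 0 passed, also 0% of all probe sets, and 1 of 21 had an unadjusted p below 0.05, beside 6.65%. In this fit the shares of members lay near or below those of all probe sets, apart from the single probe set between the dnMPL fractions. With array weights they lay above them in GFP pos against control (4 of 21 beside 2176 of 27022) and in GFP pos against GFP neg (3 beside 1641). The counts with array weights were 1 beside 2197 in GFP neg against control and 2 beside 2336 with both fractions set together.

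The GFP pos and control arrays did not overlap for 1 of 21 member probe sets (4.76%), beside 8.4% of all probe sets. GFP neg and control arrays did not overlap for 3 of 21 (14.3%), beside 10.8%, and GFP pos and GFP neg arrays for 2 of 21 (9.52%), beside 6.47%. The median log2 difference of the 10 genes, each by its brightest probe set, was -0.12 for GFP pos against control, beside -0.028 over all 12398 genes tested. It was -0.085 beside -0.038 for GFP neg against control, and -0.10 beside 0.015 for GFP pos against GFP neg. With the mean of each gene's probe sets the medians were 0.0045, 0.028 and -0.075. These leave out Cbx8, whose averaged level fell below the filter, so the 2 summaries do not cover the same genes. Sizes without sign were smaller for the members than for all genes, with medians of 0.205 beside 0.284, 0.117 beside 0.294, and 0.174 beside 0.252 in the same order of comparisons.

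The precision limits what these zeros can show. The 95% intervals of the 21 member probe sets reached between 0.585 and 1.39 log2 units to either side of the estimate. The arrays themselves were alike in overall level (array medians of 4.52 to 4.64) and correlated at r of 0.887 to 0.971. Control 3 and GFP pos 2 stood apart, with limma array weights of 0.383 and 0.400 against 0.927 to 2.03 for the others. Their Gapdh probe sets also differed most between the 3' and 5' ends of the transcript, by 3.87 log2 units in control 3 and 3.22 in GFP pos 2, against 2.47 to 2.89 elsewhere. By brightest probe set control 3 was the lowest of the 9 arrays for 3 members (Ezh2, Eed and Bmi1) and GFP pos 2 for 2 (Suz12 and Asxl1). Such extremes were not particular to these arrays. GFP pos 1 was lowest for 3 members (Cbx2, Cbx8 and Ring1) and GFP neg 1 for 2 (Ezh1 and Cbx7). Control 1 and control 2 were each highest for 3.

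**Figure D1:**
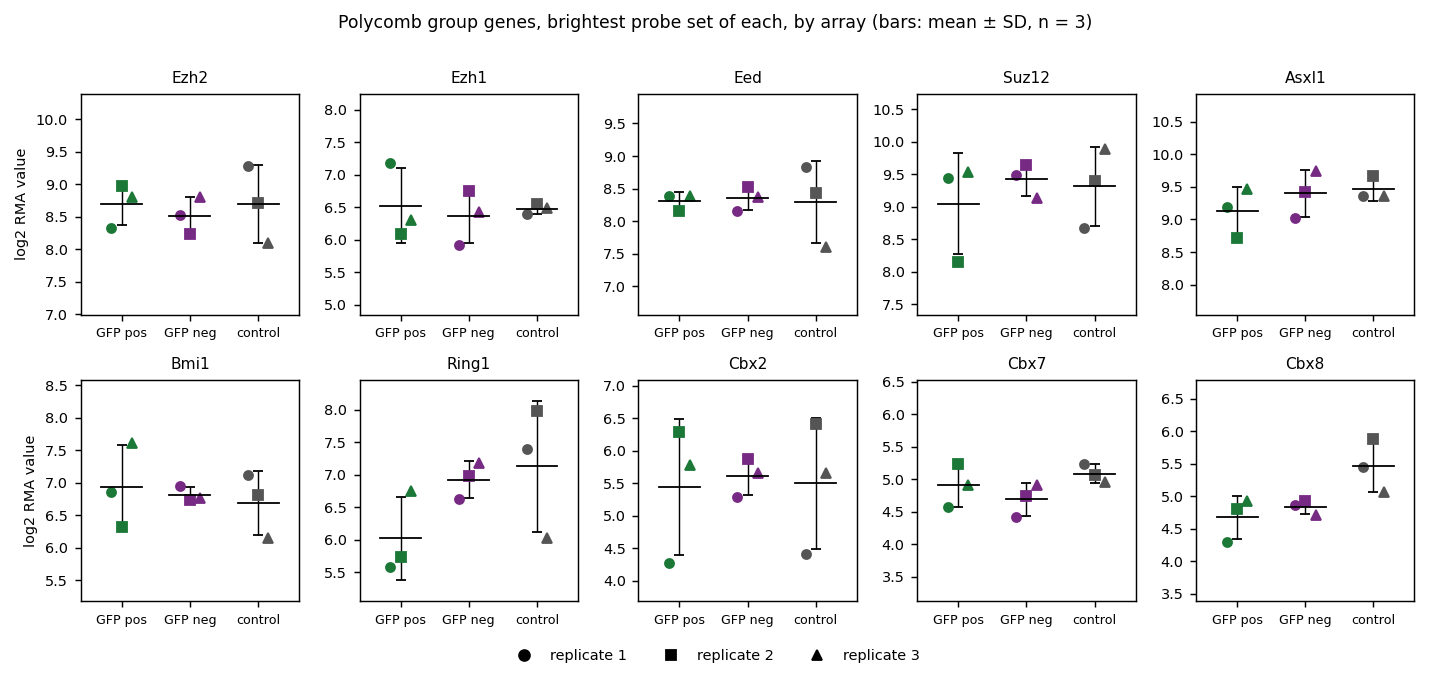
Log2 RMA value (y axis) of the brightest probe set of each of the 10 Polycomb group genes on the 9 arrays, with GFP pos, GFP neg and control arrays from left to right, marker shape for the replicate number, and horizontal line and bars for the mean ± SD (n = 3). All 3 control arrays lie above all 6 dnMPL arrays for Cbx8, and groups overlap for the other genes except GFP neg against control for Cbx7.

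Among the enzymes of complex 2, Ezh2, the main methyltransferase of dividing cells, gave 8.33, 8.97 and 8.81 in GFP pos cells, 8.52, 8.23 and 8.81 in GFP neg cells, and 9.29, 8.72 and 8.09 in control cells (1416544_at). The control arrays alone spanned the values of every other array. Ezh2 averaged 8.70 ± 0.34 in GFP pos, 8.52 ± 0.29 in GFP neg and 8.70 ± 0.60 in control cells (SD, n = 3 each). The log2 difference between GFP pos and control was 0.0045 with a 95% interval of -0.82 to 0.83, and limma's adjusted p was 0.9997. Leaving out control 3 moved that difference to -0.30, and leaving out control 1 moved it to 0.30.

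Ezh1, the paralog associated with quiescent and adult stem cells, had 2 tested probe sets. The brighter one (1418290_a_at) gave 7.17, 6.09 and 6.31 in GFP pos cells, 5.92, 6.75 and 6.42 in GFP neg cells, and 6.40, 6.54 and 6.48 in control cells. Control arrays were close together (SD 0.074), and both dnMPL groups reached above and below them. Its log2 difference was 0.049 (SE 0.36) for GFP pos and -0.11 (SE 0.36) for GFP neg against control. The other (1449023_a_at) ranged from 5.10 to 6.57 over the 9 arrays and differed by -0.26 and 0.043 in the same comparisons, so the 2 probe sets of Ezh1 disagreed in sign. A further 2 Ezh1 probe sets lay below the filter, with means of 3.04 and 2.48.

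Eed, the subunit that reads the methyl mark and stimulates the enzyme, gave 8.39, 8.15 and 8.39 in GFP pos cells, 8.15, 8.53 and 8.38 in GFP neg cells, and 8.83, 8.44 and 7.60 in control cells (1448653_at). Here again control 3 was the lowest array and control 1 the highest, with all dnMPL arrays between them. The log2 differences against control were 0.018 for GFP pos and 0.063 for GFP neg (SE 0.34 for both). Its other probe set (1453830_at) was below the filter with a mean of 2.28.

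Suz12, which holds the complex together, was measured by 6 probe sets. The brightest (1427253_s_at) gave 9.45, 8.16 and 9.54 in GFP pos cells, 9.49, 9.64 and 9.14 in GFP neg cells, and 8.67, 9.39 and 9.88 in control cells. GFP pos 2 was the lowest array, and the groups overlapped. The tested probe set with the smallest spread, 1420021_s_at, had a pooled SD within groups of 0.17 and differed by -0.038 (95% interval -0.62 to 0.55) between GFP pos and control and by 0.12 (-0.46 to 0.71) between GFP neg and control. Over the 5 tested probe sets the difference ran from -0.27 to 0.12 for GFP pos and from 0.0035 to 0.25 for GFP neg against control.

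The sixth Suz12 probe set, 1420020_at, lay below the filter and was not tested. It was listed at 3.07, 2.57 and 2.69 in GFP pos cells, 3.72, 3.88 and 3.94 in GFP neg cells, and 3.61, 2.96 and 3.17 in control cells. GFP pos arrays were all below GFP neg arrays, and GFP neg arrays all above control arrays, a pattern that the 5 brighter Suz12 probe sets did not show. The log2 difference between GFP pos and GFP neg was -1.07 on this dim probe set, and between -0.45 and 0.11 on the tested ones.

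Asxl1 was measured by 3 probe sets that disagreed in sign for both fractions. On the brightest (1434561_at) the values were 9.19, 8.71 and 9.47 in GFP pos cells, 9.03, 9.43 and 9.74 in GFP neg cells, and 9.36, 9.67 and 9.36 in control cells. Groups overlapped, and the log2 difference was -0.34 (SE 0.31) for GFP pos and -0.061 (SE 0.31) for GFP neg against control. The 3 probe sets ranged from -0.34 to 0.54 for GFP pos and from -0.061 to 0.45 for GFP neg against control.

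In complex 1, Bmi1 gave 6.86, 6.31 and 7.61 in GFP pos cells, 6.95, 6.73 and 6.77 in GFP neg cells, and 7.12, 6.81 and 6.15 in control cells (1417493_at). GFP pos held the highest array and control the lowest, and all 3 groups overlapped. The log2 difference was 0.23 (SE 0.39) for GFP pos and 0.13 (SE 0.39) for GFP neg against control. Without GFP pos 3 the first of these became -0.11, and without GFP pos 2 it became 0.54. The other probe set of Bmi1 (1448733_at) ran from 3.67 to 5.87 over the arrays, with a pooled SD of 0.88 that exceeded that of 82.6% of tested probe sets, and differed by 0.25 (SE 0.62) and -0.087 (SE 0.62).

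Ring1, a ubiquitin ligase subunit of complex 1, showed the largest point estimate of the 10 genes. Its 1 probe set (1422647_at) gave 5.59, 5.73 and 6.76 in GFP pos cells, 6.63, 6.98 and 7.18 in GFP neg cells, and 7.39, 7.98 and 6.02 in control cells. GFP pos 1 and GFP pos 2 lay below every other array, but GFP pos 3 lay among the GFP neg arrays and control 3 fell between the GFP pos arrays. The log2 difference between GFP pos and control was -1.11 (SE 0.52, 95% interval -2.27 to 0.057), a ratio of 0.465, with limma's unadjusted p of 0.0601 and adjusted p of 0.845.

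The size of that estimate for Ring1 depended on single arrays, while its sign stayed the same when each array was left out in turn. Without control 3 it was -1.66 and without control 2 it was -0.68, with limma's adjusted p of 0.553 and 0.847. Without GFP pos 3 it was -1.47 and without GFP pos 1 it was -0.89. With array weights it was -1.53 (SE 0.45, limma's adjusted p 0.441). GFP neg differed from control by -0.20 (SE 0.52), and GFP pos from GFP neg by -0.90 (SE 0.52, limma's adjusted p 0.9999).

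The Cbx proteins bind the methyl mark and bring complex 1 to its targets, and 3 of their genes were members. Cbx8 gave 4.30, 4.81 and 4.92 in GFP pos cells, 4.87, 4.92 and 4.72 in GFP neg cells, and 5.46, 5.88 and 5.07 in control cells (1419198_at). Every dnMPL array, GFP pos or GFP neg, lay below every control array, and the nearest pair was 4.92 against 5.07. Cbx8 differed by -0.79 log2 units between GFP pos and control (SE 0.31, 95% interval -1.48 to -0.091), a ratio of 0.580, with limma's unadjusted p of 0.0307 and adjusted p of 0.825. GFP neg differed from control by -0.63 (SE 0.31, 95% interval -1.32 to 0.068, adjusted p 0.917), and GFP pos from GFP neg by -0.16 (SE 0.31).

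With both dnMPL fractions set together against control, the log2 difference of Cbx8 was -0.71 (SE 0.27, 95% interval -1.31 to -0.10, limma's adjusted p 0.704). It was the only member of 21 tested without overlap between the 6 dnMPL and 3 control arrays (4.76%), beside 3.36% of all probe sets. Leaving out 1 array at a time kept the difference between GFP pos and control from -0.99 (without control 3) to -0.58 (without control 2), and its unadjusted p was above 0.05 when control 1, control 2 or GFP pos 1 was left out. The second Cbx8 probe set (1419199_at), below the filter, was listed at 3.01, 3.47 and 2.81 in GFP pos cells, 2.65, 2.86 and 2.86 in GFP neg cells, and 2.81, 2.66 and 3.54 in control cells, with overlap between all groups.

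Markers of differentiated cells were set beside these values, and in 3 of 7 classes (erythroid, megakaryocyte, and mast cell and basophil) their summed level separated the dnMPL from the control arrays. The summed level of the 9 of 11 erythroid markers with a probe set was 10.97 to 11.15 log2 units in GFP pos, 10.68 to 10.96 in GFP neg and 9.02 to 9.28 in control cells, without overlap between dnMPL and control arrays. For 12 of 12 granulocyte markers it was 14.80 to 15.72 in GFP pos, 14.12 to 15.36 in GFP neg and 12.42 to 14.27 in control cells, so that GFP neg overlapped control. For 6 of 7 megakaryocyte markers it was 8.08 to 8.56 in GFP pos, 8.35 to 8.60 in GFP neg and 8.74 to 9.79 in control cells, lower in every dnMPL array than in every control array. The 5 of 6 mast cell and basophil markers summed to 8.25 to 9.35 in GFP pos, 7.66 to 8.85 in GFP neg and 7.48 to 7.63 in control cells. For 6 of 7 monocyte and macrophage markers it was 11.32 to 12.93 in GFP pos, 10.54 to 12.01 in GFP neg and 9.44 to 11.26 in control cells, so that GFP neg overlapped control. The 7 of 8 B cell markers (9.20 to 10.14 in GFP pos, 8.40 to 9.71 in GFP neg and 7.37 to 9.98 in control cells) and the 6 of 7 T and NK cell markers (8.15 to 8.66 in GFP pos, 8.37 to 8.64 in GFP neg and 7.67 to 8.77 in control cells) overlapped between all groups. A summed level follows the brightest markers of a list, and single markers did not all go the same way. Against control, 8 of 9 tested erythroid markers were higher in GFP pos and 7 of 9 in GFP neg. Only 4 megakaryocyte markers were tested, 3 lower and 1 higher in each fraction. All 4 tested mast cell and basophil markers were higher in each fraction. Limma called 0 genes of these lists. Their part in the values of Cbx8 and of the other genes was not tested. In such sorted bulk samples, fewer cells that carry a transcript and less transcript per cell cannot be told apart.

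A sort marker and proliferation genes were set beside them. Kit, which encodes the sort marker cKit, had 8.18, 6.38 and 8.18 in GFP pos cells, 8.02, 8.22 and 7.92 in GFP neg cells, and 8.73, 8.67 and 8.08 in control cells (1452514_a_at). GFP pos 2 lay far below all others on that probe set, while on the other (1415900_a_at) control 3 was lowest (6.00) and GFP pos 2 next (6.43). Mki67, the transcript of the proliferation antigen Ki-67, had 12.49, 12.37 and 12.04 in GFP pos cells, 11.96, 12.26 and 12.15 in GFP neg cells, and 12.33, 12.21 and 12.41 in control cells (1426817_at), with overlap between the groups. The 14 of 15 genes of G2 and M phase with a tested probe set had a median log2 difference of 0.62 in GFP pos against control (11 higher) and of 0.57 in GFP neg against control (12 higher), beside -0.028 and -0.038 over all genes. Their summed level was 13.16 to 13.41 in GFP pos, 13.07 to 13.24 in GFP neg and 12.92 to 13.14 in control cells, without overlap between GFP pos and control. The 14 genes of G1 and S phase had medians of 0.18 and 0.13 in the same comparisons. Limma called 0 genes of both lists, and their part in the members' values was not tested. Ly6a (Sca1) was not analysed here.

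Cbx7 had 3 tested probe sets, and they did not give 1 pattern. The third in brightness (1449713_at) gave 5.47, 4.91 and 4.78 in GFP pos cells, 4.24, 4.23 and 4.39 in GFP neg cells, and 4.48, 4.47 and 4.78 in control cells. All GFP pos arrays lay above all GFP neg arrays, which in turn lay below all control arrays. The log2 difference between GFP pos and GFP neg was 0.77 (SE 0.28, 95% interval 0.13 to 1.40), a ratio of 1.70, with limma's unadjusted p of 0.0232 and adjusted p of 0.9999.

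The second Cbx7 probe set (1420039_s_at) gave 5.73, 4.88 and 4.82 in GFP pos cells, 4.30, 4.61 and 4.73 in GFP neg cells, and 4.35, 4.67 and 4.96 in control cells. GFP pos and GFP neg again did not overlap, although 4.82 and 4.73 were close, and the log2 difference was 0.59 (SE 0.34). On the brightest (1433557_at), with 4.58, 5.24 and 4.92 in GFP pos, 4.42, 4.75 and 4.92 in GFP neg and 5.24, 5.06 and 4.96 in control cells, GFP pos overlapped GFP neg and differed from it by 0.22 (SE 0.29). GFP neg lay below control on that probe set by -0.39 log2 units (SE 0.29, limma's adjusted p 0.939). GFP pos 1 had the highest value of all arrays on 1449713_at and 1420039_s_at and the second lowest on 1433557_at, and without it the GFP pos minus GFP neg difference on 1449713_at was 0.56.

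**Figure D2:**
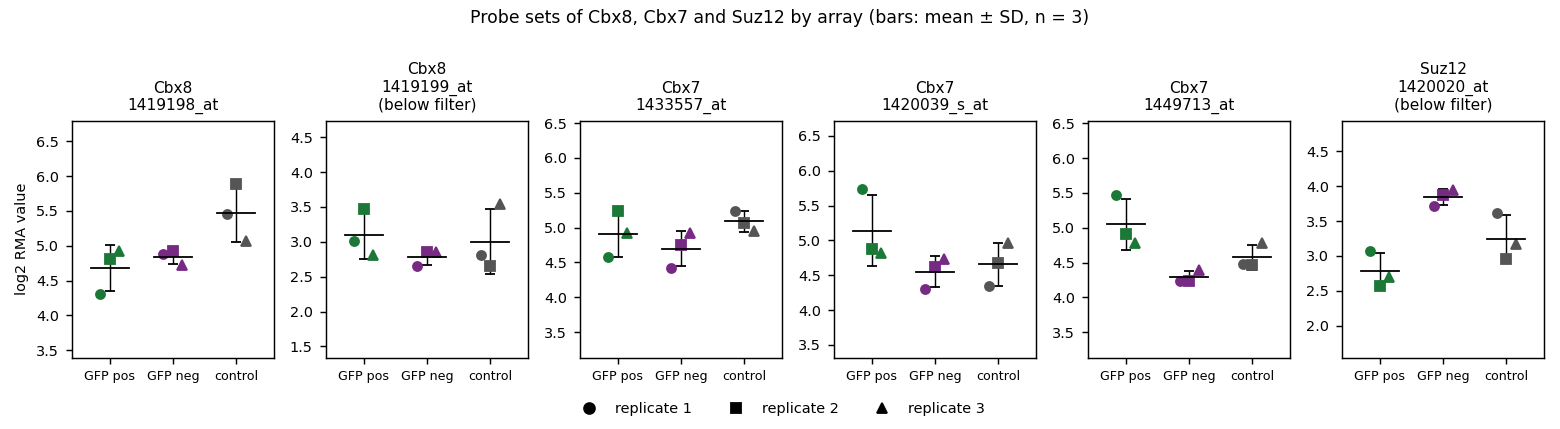
Log2 RMA values (y axis) of the 2 Cbx8, 3 Cbx7 and dimmest Suz12 probe sets on the 9 arrays, grouped as GFP pos, GFP neg and control, with lines and bars for the mean ± SD (n = 3). Control arrays are highest on the first Cbx8 probe set and not on the second, and GFP pos arrays are above GFP neg arrays on 1420039_s_at and 1449713_at but not on 1433557_at.

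Cbx2 varied widely within groups on 1 of its 2 probe sets. The brighter one (1434116_at) gave 4.27, 6.29 and 5.78 in GFP pos cells, 5.29, 5.87 and 5.66 in GFP neg cells, and 4.42, 6.42 and 5.66 in control cells. GFP pos and control arrays each spanned the whole range of GFP neg arrays. The log2 difference was -0.055 for GFP pos and 0.11 for GFP neg against control (SE 0.61 for both), and its pooled SD of 0.86 exceeded that of 81.4% of tested probe sets. The other probe set (1422059_at) ranged from 4.48 to 5.79 and differed by 0.18 and 0.17 (SE 0.40).

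**Figure D3:**
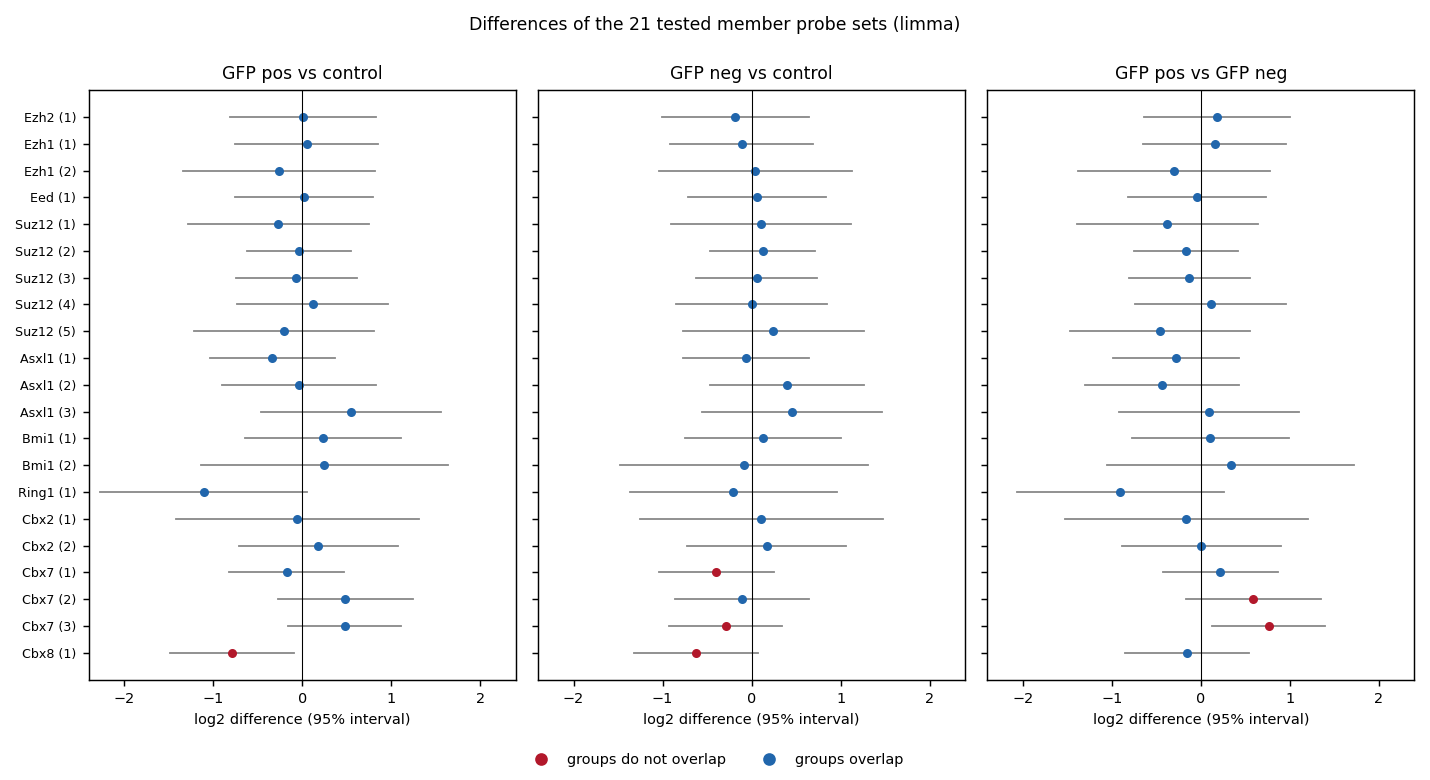
Log2 differences (x axis) with 95% intervals of the 21 tested probe sets of the Polycomb group genes in GFP pos against control, GFP neg against control and GFP pos against GFP neg cells, from limma, with probe sets of a gene numbered by brightness. Red points have groups that do not overlap (1, 3 and 2 of 21), and the interval of Cbx8 in the first panel and of Cbx7 (3) in the third leaves out 0.

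Across the 9 arrays the members varied together in a few pairs. Each gene was taken by its brightest probe set only. Among the 45 pairs of the 10 genes, Cbx8 and Ring1 had the highest Pearson r of log2 values (0.77), followed by Ring1 and Asxl1 (0.71). Ezh2 and Suz12, subunits of the same complex, had the lowest (-0.79). Whether other probe sets of these genes give the same r was not tested, so each r belongs to 1 pair of probe sets. These arrays share their groups, and single arrays, among them control 3 and GFP pos 2, were extreme for several members. The values are therefore given as a description.

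Outside the set, the genes most like Bmi1 over the 9 arrays among 12397 others were Dhx16 (r = 0.97), Nr2c1 (0.94) and Ash2l (0.92). For Ezh1 they were Ddx27 (0.94), 1810073O08Rik (0.93) and Plppr3 (0.90), and for Ezh2 they were Snapc2 (0.94), Fam76a (0.94) and Wdr81 (0.92). These r were picked as the highest of 12397 over only 9 arrays, where picking alone can give high values. They were not tested and are no evidence of shared regulation.

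The 250 bases before the start of Cbx8 and Ring1 are shown because these genes had the highest r among the members and the lowest point estimates in GFP pos cells. The sequences are RefSeq's for GRCm38.p6, each written 5' to 3' on the minus strand, where both genes lie. Cbx8 is at chr11:119040914-119041163 and Ring1 at chr17:34024681-34024930. Capitals mark TGACGTC, a cAMP response element core, and in Cbx8 the further base that makes it a palindrome read on both strands.
Cbx8: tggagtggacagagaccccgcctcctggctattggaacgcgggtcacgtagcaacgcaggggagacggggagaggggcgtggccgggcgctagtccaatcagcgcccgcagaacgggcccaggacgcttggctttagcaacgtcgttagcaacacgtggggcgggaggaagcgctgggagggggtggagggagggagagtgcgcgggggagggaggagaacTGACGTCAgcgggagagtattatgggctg
Ring1: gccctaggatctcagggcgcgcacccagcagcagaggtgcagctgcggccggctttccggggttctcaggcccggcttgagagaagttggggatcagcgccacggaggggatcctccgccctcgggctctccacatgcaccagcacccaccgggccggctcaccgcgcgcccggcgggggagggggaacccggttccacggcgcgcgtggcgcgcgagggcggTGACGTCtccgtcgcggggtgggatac

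The motif lay close to the start in both, beginning 29 bases before it in Cbx8 and 27 bases before it in Ring1. TGACGTC, searched on both strands (reverse complement GACGTCA), occurred in 2 of the 9 member promoters that the table held, beside 2.78% of the 32851 promoters counted. These had the same length and left out those of a single chromosome, where no member lies. CCAAT (reverse complement ATTGG) occurred in 4 of 9, beside 33.8%, and CACGTG in 2 of 9, beside 6.02%. All 3 motifs were chosen after the sequences had been seen, and a match is no evidence of binding. Promoters of all 9 members were above the median of the promoters counted in GC content (54.4% to 73.6%, median 52.4%) and in the number of CpG (11 to 37, median 6).

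Other genes of the Polycomb system were counted as a list of 35, of which 33 had a probe set and 31 a tested one. Among their 81 tested probe sets limma called 0 in each comparison, and at an unadjusted p below 0.05 there were 3 higher and 3 lower in GFP pos against control (7.41%, beside 5.88% of all probe sets). GFP neg against control gave 3 higher and 4 lower (8.64%, beside 5.31%), and GFP pos against GFP neg 2 higher and 2 lower (4.94%, beside 2.71%). The median log2 difference by brightest probe set was -0.12, 0.21 and -0.19 in these comparisons, beside -0.028, -0.038 and 0.015 over all genes. Groups did not overlap for 9.88%, 18.5% and 4.94% of the 81, beside 8.4%, 10.8% and 6.47% of all probe sets. With both fractions against control it was 7.41%, beside 3.36%. Genes named below were picked by a probe set with non-overlapping groups and an unadjusted p below 0.05 in at least 1 comparison. Their separation is therefore no separate result.

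Of these, Aebp2, an accessory subunit of complex 2, had the smallest unadjusted p against control. Its probe set 1437743_at gave 7.36, 7.74 and 7.10 in GFP pos cells, 7.37, 7.13 and 7.43 in GFP neg cells, and 6.11, 6.61 and 6.02 in control cells. Every dnMPL array lay above every control array, and the log2 difference was 1.15 for GFP pos and 1.06 for GFP neg (SE 0.30 for both, limma's adjusted p 0.620 and 0.775). On its brightest probe set, 1434080_at, GFP pos arrays (8.41, 8.58 and 8.54) overlapped control arrays (8.59, 8.67 and 8.53), while GFP neg arrays (8.80, 8.93 and 8.78) lay above them. The other tested Aebp2 probe sets disagreed in sign. For GFP pos and GFP neg against control they differed by 0.74 and 0.63 (1435070_at), 0.18 and -0.018 (1455616_at), and -0.52 and -0.78 (1421021_at).

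Bcor, a corepressor found in a variant of complex 1, had the smallest unadjusted p between the dnMPL fractions. On 1428773_s_at it gave 6.86, 7.27 and 6.57 in GFP pos cells, 5.66, 5.34 and 4.92 in GFP neg cells, and 6.54, 5.96 and 5.56 in control cells. GFP pos arrays lay above all others, and GFP pos differed from GFP neg by 1.60 log2 units (SE 0.36, limma's unadjusted p 0.0014, adjusted p 0.9999). On its brightest probe set (1429438_at) that difference was 0.097 (SE 0.37), and on the remaining one (1452910_at) it was 0.73 (SE 0.36) with overlapping groups.

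Bap1, the deubiquitinase that Asxl1 activates, gave 7.11, 6.51 and 7.00 in GFP pos cells, 5.86, 6.66 and 6.87 in GFP neg cells, and 7.84, 7.21 and 8.07 in control cells on 1426354_at. Both fractions lay below control, by -0.84 for GFP pos and -1.24 for GFP neg (SE 0.37 for both, limma's adjusted p 0.845 and 0.804). On its brightest probe set (1452039_a_at) the difference was -0.047 and -0.25 (SE 0.42). Foxk1, a forkhead factor that binds Bap1, differed from control by -1.03 in GFP pos and -1.25 in GFP neg on 1451752_at (SE 0.37). Its brightest probe set (1434655_at) was also lower, by -0.34 and -0.39 (SE 0.32), while 1421759_a_at was higher, by 0.56 and 1.25 (SE 0.53).

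The remaining 4 genes singled out by the same rule were Yaf2, Kdm6b, Jarid2 and Phc3. Yaf2, a subunit of variant complex 1, differed by -0.77 between GFP pos and control and by -0.53 between GFP neg and control (1429839_a_at, its brightest, SE 0.29), and its other probe set was lower too (-0.56 and -0.96, SE 0.40). Kdm6b, a demethylase that removes the mark of complex 2, differed by 1.20 between GFP pos and GFP neg and by -1.28 between GFP neg and control (1442643_at, SE 0.41). On the brightest Kdm6b probe set (1447612_x_at) the signs were opposite, with -0.17 and 0.28 (SE 0.53). The remaining Kdm6b probe set (1456610_at) had the signs of 1442643_at, with 0.85 and -0.49 (SE 0.65). Jarid2, which recruits complex 2, differed by 0.82 between GFP pos and control (1422697_s_at, SE 0.34), but by 0.022 on its brightest probe set (1422698_s_at, SE 0.56) and by -0.69 on 1450710_at (SE 0.46). Phc3, a subunit of complex 1, differed by 0.78 between GFP neg and control (1455312_at, its brightest, SE 0.33). The adjusted p from limma lay between 0.810 and 0.9999 for these differences.

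Trithorax genes, which act against Polycomb silencing, had 14 of 15 members with a tested probe set. Limma called 0 of their 28 tested probe sets in each comparison, and at an unadjusted p below 0.05 there were 0 in GFP pos against control (beside 5.88% of all probe sets), 0 in GFP neg against control (beside 5.31%) and 1, lower, in GFP pos against GFP neg (3.57%, beside 2.71%).

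Known Polycomb targets were counted as a list of 20 genes, of which 13 had a tested probe set. Of 23 tested probe sets limma called 0 in each comparison. At an unadjusted p below 0.05 there were 1 higher and 2 lower in GFP pos against control (13%, beside 5.88% of all probe sets) and 0 higher and 1 lower in GFP neg against control (4.35%, beside 5.31%). GFP pos against GFP neg gave 1 higher and 1 lower (8.7%, beside 2.71%). By brightest probe set the median log2 difference of the 13 genes was -0.18, -0.36 and 0.14 in these comparisons. Over all genes it was -0.028, -0.038 and 0.015. Of the 13 genes 5 were higher and 8 lower in GFP pos against control, 3 and 10 in GFP neg against control, and 7 and 6 in GFP pos against GFP neg. Groups did not overlap for 8.7%, 8.7% and 4.35% of the 23 in these comparisons, beside 8.4%, 10.8% and 6.47% of all probe sets. With both fractions against control it was 8.7%, beside 3.36%. Hoxa5 and Hoxa9 were picked by the same rule as the Polycomb genes above, so their separation is no separate result.

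Hoxa5, a homeobox gene silenced by Polycomb in many tissues, gave 4.80, 5.38 and 6.36 in GFP pos cells, 6.00, 5.43 and 5.75 in GFP neg cells, and 7.06, 6.87 and 6.60 in control cells (1448926_at). All dnMPL arrays lay below all control arrays, with log2 differences of -1.33 for GFP pos and -1.12 for GFP neg (SE 0.40 for both, limma's adjusted p 0.748 and 0.891). Its other tested probe set (1443803_x_at) had overlapping groups, with 5.75, 6.09 and 6.39 in GFP pos cells, 6.09, 6.18 and 6.09 in GFP neg cells, and 5.61, 6.99 and 5.56 in control cells. Hoxa9, a homeobox gene active in stem and progenitor cells, gave 7.95, 8.89 and 9.32 in GFP pos cells, 8.90, 9.37 and 9.41 in GFP neg cells, and 9.70, 9.51 and 9.54 in control cells (1455626_at). These too did not overlap with control, and the log2 difference was -0.86 for GFP pos and -0.36 for GFP neg (SE 0.37 for both, limma's adjusted p 0.837 and 0.950). On the other Hoxa9 probe set (1421579_at) the groups overlapped.

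**Figure D4:**
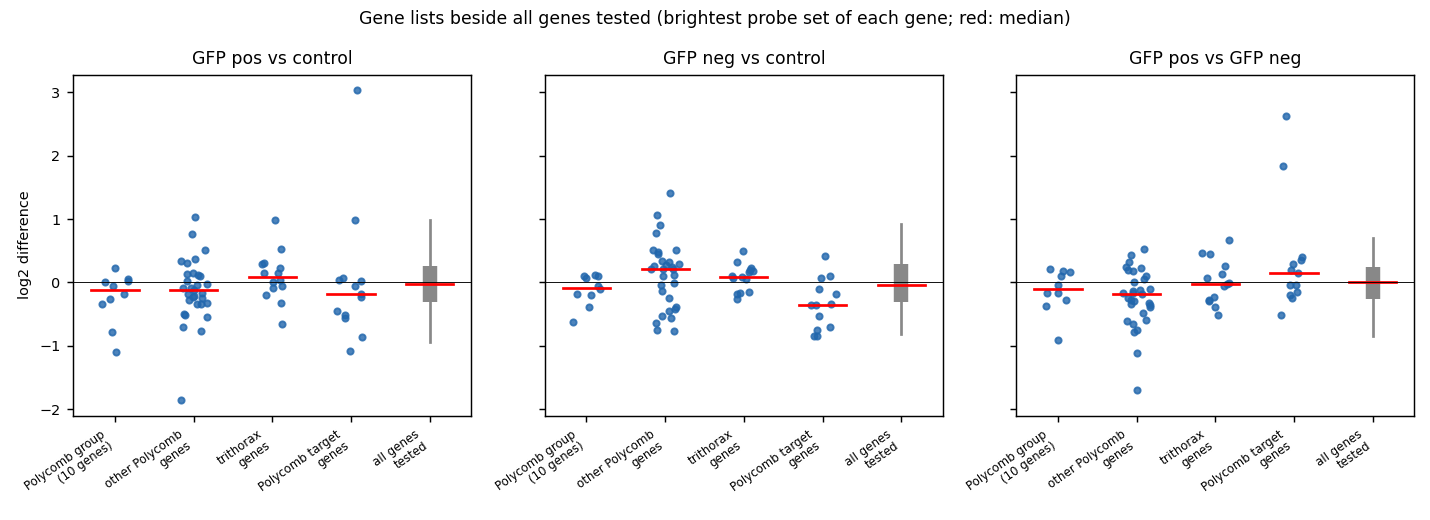
Log2 difference (y axis) of each gene's brightest probe set in the 10 Polycomb group genes, the other Polycomb genes, the trithorax genes and the Polycomb target genes, with red lines for medians and, for all 12398 genes tested, a grey box from the 25th to the 75th percentile and a grey line from the 5th to the 95th. The medians of the 10 genes are -0.12, -0.085 and -0.10, beside -0.028, -0.038 and 0.015 for all genes, and the grey marks show the spread of single genes, not of medians.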

How the data were processed

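LSK cells of 9 sorted pools were measured on 1 Affymetrix mouse array each, after amplification and biotin labelling with Nugen kits. The deposited log2 values were made by the authors with RMA, per the submitters' processing notes, which name no version. In RMA the probes of a set are combined by median polish after quantile normalization. In 10 of the 26 member probe sets 2 or more arrays had an identical value, and the effect of such ties on the spread was not tested. Scanner output was not analysed here.

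Controls made up 64 of the 45101 probe sets. By the platform annotation 34945 others carried a single gene symbol, 932 several and 9160 none. Symbols were updated through Entrez numbers for the 34741 that matched RefSeq (GRCm38.p6). The fit took probe sets whose average over the 9 arrays exceeded 4.03, the 40th percentile of all non-control probe sets. The 5 member probe sets under it are described without a test. Group means over all 9 arrays were fitted per probe set in limma 3.58.1 (R 4.3.3), so that the 3 groups shared 1 spread, with Benjamini-Hochberg adjustment over 27022 probe sets and a threshold of 0.05. A log2 difference is the first-named group minus the second. The number of arrays limits the precision.

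Members, gene lists and tests were chosen with earlier results of these data known, and so no list was tested as a set. Besides the members, the text names genes of the Polycomb and target lists with non-overlapping groups and an unadjusted p below 0.05 in at least 1 comparison (at most 8 a list), the 3 genes most like Bmi1, Ezh1 and Ezh2 by Pearson r, and Kit and Mki67. Summed marker levels are log2 of summed linear values of each gene's brightest probe set. The fit was tested on simulated data. Alternatives tried were other filters, 1 value per gene, further normalization, other variance and array weights, fewer arrays and a replicate block.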

Additional observations from a re-analysis of the deposited data

How the results depend on the processing

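The counts of called probe sets, over all probe sets and over the members, stayed at 0 in every comparison under all alternatives run in limma, including a threshold of 0.1, the replicate block and leaving out each array in turn. With the replicate block the smallest adjusted p of all probe sets was 0.423 for GFP pos against control, 0.708 for GFP neg against control, 0.976 for GFP pos against GFP neg and 0.308 for both fractions against control. Without the block it was 0.231 for both fractions against control, and it went down to 0.0664 with array weights, 0.0783 with arrays centred on their median and 0.0959 with probe sets averaged per gene, none of which was combined with the threshold of 0.1. Same-numbered arrays did not deviate together (r of -0.252 to 0.0905), and the labels do not say whether they share mice, so they were treated as unpaired. The median of the members ranged from -0.27 to -0.088 for GFP pos against control, from -0.21 to 0.089 for GFP neg against control, from -0.26 to 0.041 for GFP pos against GFP neg and from -0.28 to -0.062 for both fractions against control when 1 array was left out. With control 3 and GFP pos 2 both left out it was -0.32, -0.21, 0.041 and -0.21, with array weights -0.31, -0.10, -0.097 and -0.18, and with the mean of each gene's probe sets 0.0045, 0.028, -0.075 and 0.0075. The values by mean leave out Cbx8, whose averaged level fell below the filter. Of 778 recomputed differences of the 10 genes 8 moved by more than the spread between replicates and 81 changed sign, of which 78 had a size under 0.3 as reported. The smallest adjusted p of a member gene under any alternative was 0.376 (Cbx8, both fractions against control, array weights). Averaging the 3 Cbx7 probe sets gave 0.53 for GFP pos against GFP neg, and averaging the 5 Aebp2 probe sets gave 0.29 for GFP pos against control. The cause of these shifts was not tested. The setting with only the groups compared was not run for both fractions against control, which uses all arrays. The filter at the 60th percentile left dim members without a value, among them Cbx8 and all 3 Cbx7 probe sets.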
